A study of Mus musculus with 12 samples.

Results

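Mitochondria carry their own machinery for folding proteins and for degrading those that fail to fold. The 10 genes described here encode its central parts and were chosen by name, with earlier results of these data known. These are the chaperones *Hspa9*, *Dnaja3*, *Hspd1*, *Hspe1* and *Trap1*, and the protease subunits *Lonp1*, *Clpp*, *Clpx*, *Yme1l1* and *Afg3l2*. They are 10 of the 55536 genes in the deposited tables, each with 1 entry, and all 10 were among the 19661 genes that passed a filter on low counts and were tested. Most mitochondrial proteins are made in the cytosol and enter the organelle unfolded, so they are drawn in, folded and, where folding fails, cut up inside it. When unfolded proteins build up in the matrix, cells can raise transcription of these genes, a programme called the mitochondrial unfolded protein response, which in mammals is linked to the factors ATF5, ATF4 and CHOP. Thyroid follicular cells also pass large amounts of thyroglobulin through the endoplasmic reticulum (ER), which has chaperones of its own from the same families.

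RNA was sequenced from the thyroids of 12 mice, 1 library per mouse, to compare mice that had a thyroid dysplasia with mice that did not. The 5 affected mice (numbers 1, 3, 4, 5 and 6) were C57BL/6NTac. Of the 7 unaffected mice, 6 (21 to 26) were C57BL/6N from Charles River (B6NCrl) and 1 (14) was a knockout animal from a C57BL/6NTac (B6NTac) mutant strain. The study traces the dysplasia to a LINE-1 element in the thyroglobulin gene *Tg*, but the labels do not give the genotype of each mouse at that element, nor its sex, age or batch. Colony and phenotype split the mice in the same way except for mouse 14, so they cannot be told apart. Total counts were 20811033, 22203377, 20331145, 23319948 and 20170500 in affected mice 1, 3, 4, 5 and 6. In unaffected mice they were lowest in mouse 14 at 11434901, with a median of 19402629 and a highest value of 22401136. The lowest count of any of the 10 genes in any mouse was 125, for *Clpp* in mouse 14. *Tg*, the defining gene of thyroid follicular cells, was the most abundant thyrocyte marker. It had 100305, 182269, 254784, 198084 and 118853 CPM (counts scaled to the library size after TMM) in affected mice 1, 3, 4, 5 and 6 and 209650 to 302995 CPM in unaffected mice.

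Affected mice had more RNA of 6 of the 10 genes at an adjusted p below 0.05 and less of 0 (edgeR's quasi-likelihood test, Benjamini-Hochberg adjustment over the 19661 genes). The count of 6 fell to 3 in 8 of the 12 fits that left out 1 mouse and to 2 with the mean of brown fat markers as a covariate. Among all genes tested, 7.63% were higher and 6.1% were lower by the same test. With library totals without *Tg*, 608 genes (3.09%) were higher, 2 of the 10 among them, and 1711 were lower. The 6 genes were *Hspa9*, *Hspd1*, *Dnaja3*, *Hspe1*, *Clpp* and *Lonp1*. All 10 log2 fold changes were above 0, from 0.011 for *Yme1l1* to 0.87 for *Hspa9*, as were 9980 of the 19661 genes tested. Their median was 0.39 against 0.0052 over all genes tested. Other mitochondrial genes, described below, were also mostly above 0. These were 23 of 25 nuclear genes (median 0.36) and 13 of 13 genes of mitochondrial DNA (median 0.57). This median of 0.39 fell to 0.21 with the mean of brown fat markers as a covariate. It was 0.25 with library totals without *Tg* and 0.12 with the summed counts of 25 other mitochondrial genes as library size. Without affected mice 1 and 6, a fit chosen after seeing the data, it was 0.16 with 7 of the 10 above 0. At an unadjusted p under 0.05, 7 of the 10 genes passed, as *Trap1* did too, against 29.0% of all genes tested. For 3 of the 10 (*Hspa9*, *Hspd1* and *Clpp*) no unaffected mouse reached the lowest affected mouse, a pattern found for 3.78% of all genes tested. Because a thyroid is a mixture of cells, fewer cells of a type and less RNA per cell cannot be told apart in these values.

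**Figure D1:**
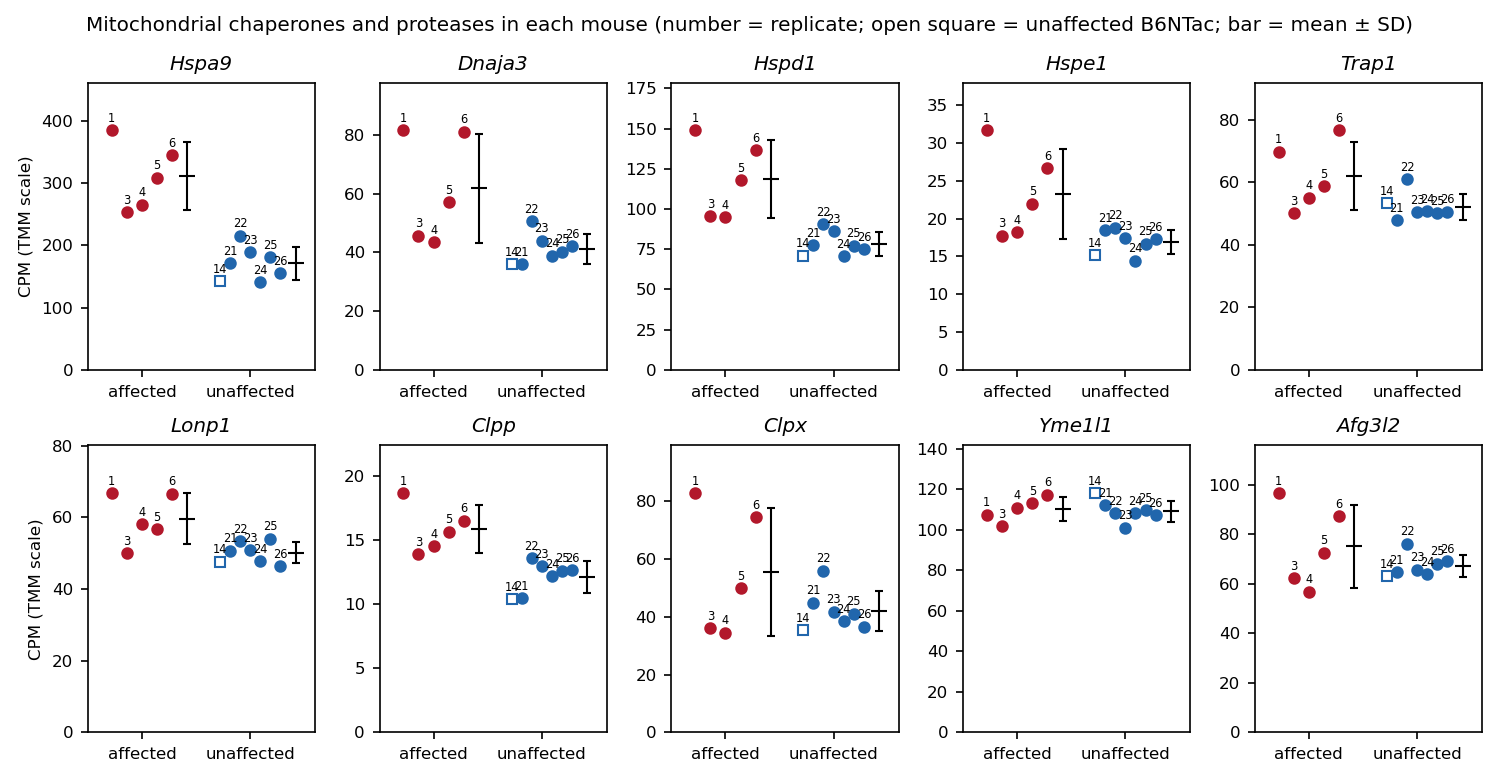
CPM (vertical axis, from 0, TMM scale) of each of the 10 genes in the 5 affected mice (red) and the 7 unaffected mice (blue), labelled by mouse number; the open square is mouse 14 and the black bars are mean ± SD. Red and blue points do not overlap for *Hspa9*, *Hspd1* and *Clpp*, and for *Yme1l1* both groups lie between 101 and 118 CPM.

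*Hspa9* encodes mortalin, the HSP70 of the matrix, which pulls incoming proteins through the inner membrane and keeps them from aggregating. Its level was 384, 253, 265, 308 and 345 CPM in affected mice 1, 3, 4, 5 and 6. In unaffected mice it ran from 140 to 215 CPM with a median of 171. Even affected mouse 3, the lowest of its group, lay above unaffected mouse 22, the highest of the other. In edgeR's quasi-likelihood test the increase was 0.87 on the log2 scale, with a standard error of 0.13 and adjusted p = 0.00116, which placed the gene at position 783 of the 19661 by size of increase. Mouse 14, the unaffected B6NTac mouse, had 143 CPM and B6NCrl mice had 175 ± 26.3 CPM (SD, n = 6). For each 1000 counts of 25 other mitochondrial genes, however, mouse 14 had 48.2, the highest of the unaffected mice. As 1 mouse with the lowest total count, it cannot separate colony from phenotype. Over the 10 genes, mouse 14 was below the B6NCrl mean for 8 and above it for *Trap1* and *Yme1l1*.

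*Dnaja3* (Tid1) encodes the J-domain partner that stimulates mortalin. Its level was 81.5, 45.7, 43.5, 57.1 and 81.1 CPM in affected mice 1, 3, 4, 5 and 6, and in unaffected mice it ran from 35.9 to 50.7 CPM with a median of 40.2. Affected mice 1, 5 and 6 lay above all unaffected mice, while 3 and 4 fell within their range. *Dnaja3* rose by 0.59 on the log2 scale, with a standard error of 0.16 and adjusted p = 0.0331 in edgeR's quasi-likelihood test, and lost this call in 8 of the 12 fits without 1 mouse. Exons of *Dnaja3* share 160 bases with *Vasn* on the same strand and 153 bases with *Coro7* on the other, and whether counting used the strand is not stated, so part of its counts is uncertain.

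*Hspd1* and *Hspe1* encode HSP60 and HSP10, the barrel and the lid of the matrix chaperonin, inside which single proteins fold. The level of *Hspd1* was 149, 95.8, 94.9, 118 and 137 CPM in affected mice 1, 3, 4, 5 and 6. In unaffected mice it ran from 70.5 to 90.8 CPM with a median of 77.3. The groups did not overlap, though mice 3 and 4 lay close to the highest unaffected mouse. The increase of *Hspd1* was 0.60 on the log2 scale, with a standard error of 0.12 and adjusted p = 0.00571 in edgeR's quasi-likelihood test. *Hspe1* had 31.7, 17.8, 18.2, 22.0 and 26.6 CPM in the same affected mice, against 14.4 to 18.8 with a median of 17.3. Here mice 3 and 4 lay inside the unaffected range, and the increase of 0.46 on the log2 scale had a standard error of 0.14 and adjusted p = 0.045 in edgeR's quasi-likelihood test. Of the 12 fits without 1 mouse, 9 lost the call of *Hspe1*.

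The 2 chaperonin genes stand head to head on chromosome 1 of GRCm38, *Hspd1* on the minus strand from 55077835 to 55088243 and *Hspe1* on the plus strand from 55088132 to 55091307. Their exons share the 112 bases from 55088132 to 55088243, and counts of both genes are fractional in the deposited table. Reads from these bases cannot be assigned to one gene without the strand. The ratio of *Hspd1* to *Hspe1* counts, which does not depend on how libraries are scaled, was 4.70, 5.39, 5.21, 5.36 and 5.12 in affected mice 1, 3, 4, 5 and 6. In unaffected mice it ran from 4.20 to 4.95, with mouse 14 at 4.69. Only affected mouse 1 lay within that range. The mean log2 ratio was higher by 0.15 in affected mice (exact two-sided permutation test over the 792 splits of 5 against 7 mice, p = 0.0177, adjusted p = 0.0236 over 4 ratios). Without affected mouse 3 the adjusted p of the exact permutation test was 0.0525 with a difference of 0.13, and without affected mouse 5 it was 0.0525 with a difference of 0.14.

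*Trap1* encodes the HSP90 of mitochondria. Its level was 69.7, 50.1, 55.0, 58.7 and 76.5 CPM in affected mice 1, 3, 4, 5 and 6, and 47.9 to 60.9 CPM with a median of 50.6 in unaffected mice. Only mice 1 and 6 lay above the unaffected range. Its log2 fold change of 0.25 had a standard error of 0.10 and did not pass edgeR's quasi-likelihood test, with adjusted p = 0.118.

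Among the proteases of the matrix, *Lonp1* encodes a ring-shaped protease that unfolds and cuts its own substrates. Its level was 66.8, 50.1, 58.1, 56.8 and 66.7 CPM in affected mice 1, 3, 4, 5 and 6, and 46.4 to 54.1 CPM with a median of 50.7 in unaffected mice. Mouse 3 was the only affected mouse within the unaffected range. The gene rose by 0.25 on the log2 scale, with a standard error of 0.077 and adjusted p = 0.0471 in edgeR's quasi-likelihood test, and this call too was lost in 9 of the 12 fits without 1 mouse.

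*Clpp* encodes the peptidase chamber of the ClpXP protease and *Clpx* the unfoldase that feeds it. *Clpp* had 18.7, 13.9, 14.5, 15.7 and 16.5 CPM in affected mice 1, 3, 4, 5 and 6, and 10.4 to 13.6 with a median of 12.6 in unaffected mice. *Clpx* had 82.8, 36.0, 34.4, 49.9 and 74.4 CPM in the same affected mice, and 35.3 to 55.9 with a median of 41.0 in unaffected mice. *Clpp* was thus narrow within groups and separate between them, whereas *Clpx* in affected mice reached from below the lowest to above the highest unaffected mouse. *Clpp* rose by 0.39 on the log2 scale, with a standard error of 0.10 and adjusted p = 0.0197 in edgeR's quasi-likelihood test. For *Clpx* the log2 fold change of 0.40 was as large, but its standard error was 0.22 and it did not pass (adjusted p = 0.243, edgeR's quasi-likelihood test). Without affected mouse 1 the log2 fold change was 0.21 for *Clpx* and 0.32 for *Clpp*. The log2 ratio of *Clpp* to *Clpx* was -1.72 ± 0.43 (SD, n = 5) in affected and -1.78 ± 0.21 (SD, n = 7) in unaffected mice, with p = 0.741 in the exact permutation test. Its difference of 0.060 turned to -0.027 without affected mouse 3 and to -0.059 without affected mouse 4, and was 0.17 when mouse 1 alone or mouse 6 alone was left out. With both left out, a comparison chosen after seeing the data, it was 0.35 (exact permutation test, p = 0.0667).

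*Yme1l1* and *Afg3l2* encode the AAA proteases of the inner membrane, the first facing the intermembrane space and the second the matrix. *Yme1l1* had 108, 102, 111, 113 and 117 CPM in affected mice 1, 3, 4, 5 and 6, and 101 to 118 with a median of 108 in unaffected mice. The ranges nearly coincide, and the log2 fold change of 0.011 had a standard error of 0.055 and adjusted p = 0.917 in edgeR's quasi-likelihood test. Its sign was below 0 in 9 of 29 other fits. *Afg3l2* had 96.8, 62.4, 56.9, 72.6 and 87.3 CPM, against 63.1 to 76.2 with a median of 65.7. As for *Clpx*, affected mice lay on both sides of the unaffected range, and the log2 fold change of 0.16 had a standard error of 0.12 and adjusted p = 0.407 in edgeR's quasi-likelihood test. It was 0.053 without affected mouse 1 and 0.27 without affected mouse 4.

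The affected mice were not alike. Mouse 1 had the highest level of the group for 8 of the 10 genes and mouse 6 for the other 2, and mice 3 and 4 held the lowest level for 6 and 4 genes. Relative to the mean of unaffected mice, the median over the 10 genes was a log2 difference of 0.76, 0.035, 0.095, 0.31 and 0.61 in mice 1, 3, 4, 5 and 6. Mouse 1 lay above all unaffected mice for 9 genes, mouse 6 for 9, mouse 5 for 6, mouse 4 for 4 and mouse 3 for 3. The share of all genes tested for which each single mouse does so was not computed. These counts can therefore not be read as particular to the 10 genes. Among unaffected mice, mouse 22 had the highest level for 8 of the 10 genes. Mouse 14 was the lowest of the unaffected mice for 3 genes and the highest for *Yme1l1*.

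Nuclear genes of mitochondrial metabolism, carriers and the respiratory chain varied among mice in a similar order. Their summed level (25 genes, most abundant *Atp5b*) was 6649, 2968, 2797, 4258 and 7308 CPM in affected mice 1, 3, 4, 5 and 6. In unaffected mice it ran from 2964 to 5292 CPM with a median of 3804, again with mouse 22 the highest. So affected mice 1 and 6 lay above the unaffected range and mouse 4 below it. Of these 25 genes 1 was higher (*Slc25a5*, an ADP/ATP carrier, log2 fold change 0.27) and 0 were lower by edgeR's quasi-likelihood test, with 3 at an unadjusted p under 0.05 and a median log2 fold change of 0.36. The 13 protein-coding genes of mitochondrial DNA (most abundant *mt-Co1*) summed to 64937, 28385, 39785, 40928 and 76121 CPM in the same affected mice and to between 28902 and 47794 in unaffected mice. Of them 1 was higher (*mt-Nd6*, log2 fold change 0.68), with 10 at an unadjusted p under 0.05 and a median of 0.57. *Slc25a5* passed again in 8 of 29 other fits and *mt-Nd6* in 6.

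**Figure D2:**
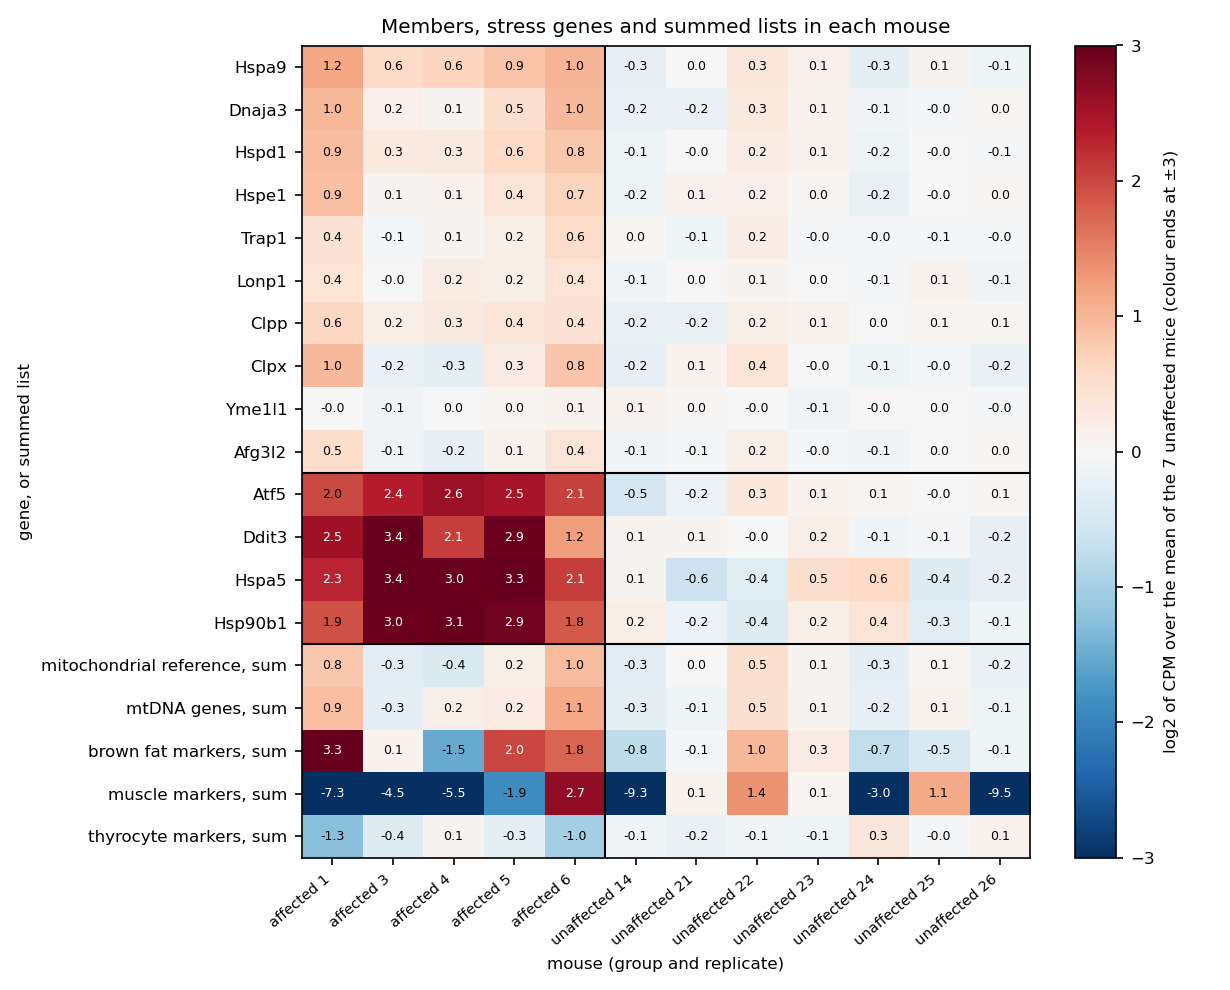
Log2 of the CPM in each of the 12 mice (columns) over the mean of the 7 unaffected mice, for the 10 genes, for 4 stress genes and for the summed CPM of 5 gene lists, with red above and blue below that mean. Affected mice 1 and 6 are the reddest columns for most of the 10 genes and for the mitochondrial sums, and the palest of the affected columns for *Hspa5* and *Hsp90b1*.

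Markers of tissues that lie beside the thyroid also differed among the mice. The 8 markers of brown fat, a tissue dense in mitochondria, summed to 1185, 125, 41.0, 474 and 397 CPM in affected mice 1, 3, 4, 5 and 6, and to 69.4 to 236 in unaffected mice, where mouse 22 was the highest. Their most abundant gene *Ucp1*, the uncoupling protein, had 691, 51.5, 9.5, 263 and 151 CPM in the affected mice and 10.3 to 82.8 in unaffected mice. Of the 8 markers 2 were higher (*Elovl3*, a fatty acid elongase, by 3.79 and *Dio2*, a deiodinase, by 3.25 on the log2 scale) and 0 lower, with 6 at an unadjusted p under 0.05 and a median log2 fold change of 1.39. *Elovl3* passed again in 20 other fits and *Dio2* in 12. Without affected mouse 1 their log2 fold changes were 2.88 and 2.41. Affected mouse 4 had 0.10 CPM of *Elovl3*, below the lowest unaffected mouse at 0.57. The 12 markers of skeletal muscle (most abundant *Ttn*) summed to 106, 769, 381, 4565 and 106820 CPM in the affected mice and to between 23.3 and 43148 in unaffected mice. None of them passed edgeR's quasi-likelihood test, and 0 had an unadjusted p under 0.05. No list had a marker at 0 in all 12 mice. Mouse 1 was thus high in brown fat markers and low in muscle markers, and mouse 6 was high in both. Beyond fits that took the mean of a list as a covariate, the part of these tissues in the levels of the 10 genes was not tested.

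Among the other lists of cell markers, macrophage markers were the ones most often higher, 4 of 8 (*Lyz2* by 1.73, *Cd68* by 0.98, *Mrc1* by 0.74 and *Csf1r* by 0.68 on the log2 scale, edgeR's quasi-likelihood test). Their sum was 425, 367, 281, 293 and 262 CPM in affected mice 1, 3, 4, 5 and 6 and 101 to 246 in unaffected mice, without overlap. Of 12 thyrocyte markers 1 was higher (*Slc26a4*, which encodes pendrin, 3.69) and 1 lower (*Pax8*, a thyroid transcription factor, -0.81), with a median of -0.095 and 5 at an unadjusted p under 0.05. *Slc26a4* was near the floor, at 0.61 to 3.3 CPM in affected and 0 to 0.29 CPM in unaffected mice. Thyrocyte markers summed to 101261, 184234, 256784, 200084 and 119842 CPM in affected mice 1, 3, 4, 5 and 6 and to 211020 to 304746 in unaffected mice, most of it *Tg*. Mice 1 and 6 were thus the lowest of all 12 in this sum. Between them they held the highest level of the affected mice for each of the 10 genes. Library totals without *Tg* in place of the TMM scale left *Hspa9* and *Hspd1* as the members that were higher. Of 6 fibroblast markers *Dcn* (0.58) and *Pdgfra* (0.38) were higher, and of 6 endothelial markers *Kdr* (-0.60) was lower, while 4 were above 0 and their median was 0.19. *Csf1r* passed again in 6 of 29 other fits, *Pdgfra* in 9, *Kdr* in 14 and *Mrc1* in 21. None passed among 6 white fat markers (median 0.41), 4 parathyroid markers (-0.061), 3 tested of 4 C cell markers (-0.38), 5 tested of 8 T cell markers (-1.82) and 5 tested of 8 B cell markers (0.92). White fat markers summed to 2170, 527, 426, 872 and 1087 CPM in affected mice 1, 3, 4, 5 and 6 and to 473 to 860 in unaffected mice, so among affected mice they too were highest in 1 and 6 and lowest in 3 and 4. Parathyroid markers summed to 46.3 CPM in affected mouse 4 and to 3618 or more in each other mouse. T cell markers summed to 295 and 299 CPM in unaffected mice 14 and 21 and to at most 52.5 in each other mouse.

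With the mean of the brown fat markers as a covariate, 2 of the 10 genes were higher, *Hspa9* (log2 fold change 0.69) and *Hspd1* (0.40). With the muscle mean as a covariate, 5 were. In a fit chosen after seeing the data, without affected mice 1 and 6, the same *Hspa9* (0.69) and *Hspd1* (0.39) were the genes that passed, and *Clpx* (-0.064), *Afg3l2* (-0.072) and *Yme1l1* (-0.0079) turned below 0. *Hspa9* and *Hspd1* passed in 28 of 29 other fits, *Clpp* in 23, *Dnaja3* in 13, *Lonp1* in 9 and *Hspe1* in 6. The fit in which no gene passed took the summed mitochondrial reference genes as library size, which lowered the number of genes called from 2699 to 172 and the median of all genes to -0.18. There *Hspa9* had a log2 fold change of 0.65 and *Hspd1* of 0.35.

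**Figure D3:**
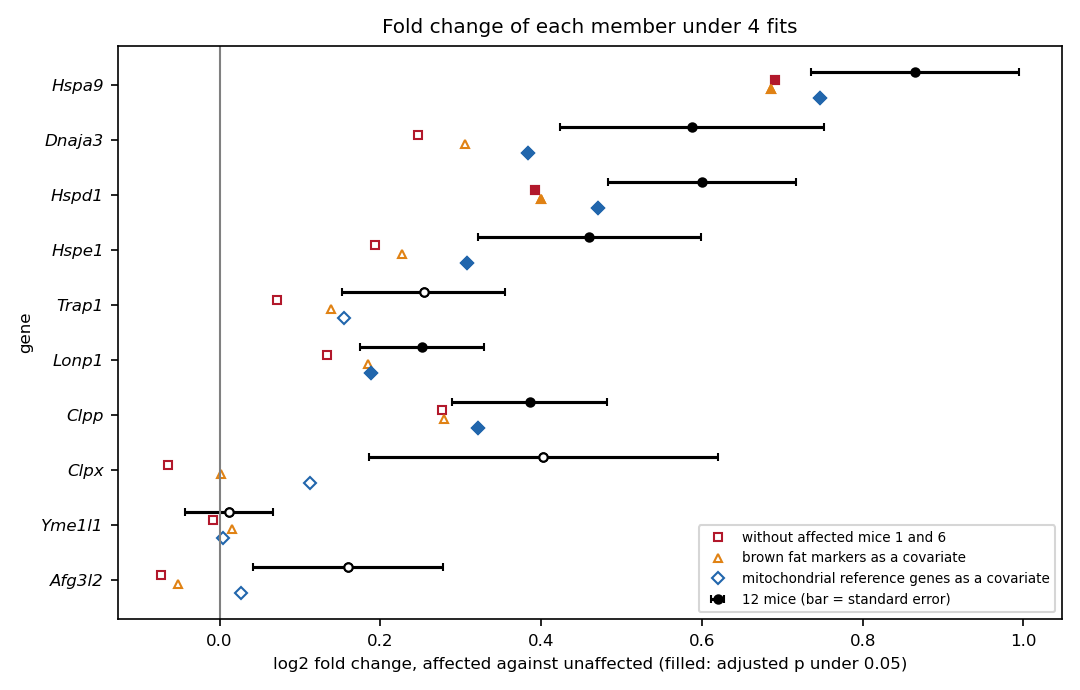
Log2 fold change (horizontal axis) of each of the 10 genes in affected against unaffected mice, from all 12 mice (black, bars are standard errors), without affected mice 1 and 6 (red), with the mean of the brown fat markers as a covariate (orange) and with the mean of the mitochondrial reference genes as a covariate (blue). Filled symbols had an adjusted p under 0.05. *Hspa9* and *Hspd1* are filled in all 4 fits, while *Trap1*, *Clpx*, *Afg3l2* and *Yme1l1* are open in all 4.

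Set against the same mitochondrial reference genes within each mouse, a measure chosen after seeing the data and given without a test, *Hspa9* had 57.8, 85.3, 94.8, 72.4 and 47.2 counts for each 1000 counts of the 25 genes in affected mice 1, 3, 4, 5 and 6. Unaffected mice lay between 40.7 and 48.2 with a median of 46.2. Affected mice 1, 3, 4 and 5 lay above that range and mouse 6 within it. The order of the affected mice on this scale says nothing particular about *Hspa9*, because the summed reference is lowest in mice 4 and 3 and highest in 6 and 1, and *Yme1l1* had the same order. *Clpx* ran from 10.2 to 12.5 in affected and from 10.4 to 12.4 in unaffected mice, nearly the same range. For *Yme1l1*, the values were 26.6 ± 10.6 (SD, n = 5) and 30.1 ± 6.43 (SD, n = 7), and 0 affected mice lay above the unaffected range.

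Levels of different genes were compared in FPKM, which divides counts by transcript length. In unaffected mice the order was *Hspa9* (60.9 ± 7.85 FPKM, SD, n = 7), *Hspd1* (33.8 ± 2.97), *Yme1l1* (31.1 ± 2.57), *Trap1* (22.9 ± 1.75), *Hspe1* (21.7 ± 2.26), *Afg3l2* (19.5 ± 1.25), *Dnaja3* (16.6 ± 1.64), *Clpx* (15.6 ± 2.38), *Lonp1* (15.0 ± 0.886) and *Clpp* (12.6 ± 1.06). Each gene was above the next in all 7 mice and by more than either SD only for *Hspa9* over *Hspd1*, *Yme1l1* over *Trap1*, *Afg3l2* over *Dnaja3* and *Lonp1* over *Clpp*. The other neighbours in the order did not differ beyond their spread, though *Hspe1* was above *Afg3l2* in all 7 mice. In affected mice *Hspa9* (108 ± 23.1 FPKM, SD, n = 5) and *Hspd1* (50.8 ± 11.5) again came first, *Hspe1* (29.9 ± 8.98) moved to the third place and *Yme1l1* (29.6 ± 1.69) to the fourth. Only *Hspa9* over *Hspd1* and *Hspd1* over *Hspe1* differed beyond their spread there. *Dnaja3* was above *Afg3l2* and *Lonp1* above *Clpp* in all 5 affected mice, but by less than either SD. Counts and FPKM need not move alike, because the transcript length behind the FPKM can differ between mice. That length, the count over the FPKM and the total, differed by 4.74% for *Yme1l1* and by -4.39% for *Lonp1*, affected against unaffected mice. In FPKM the groups did not overlap for *Lonp1*, and affected mice had the lower mean of *Yme1l1*.

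Other genes of the same machinery can be set against the 7.63% of all genes tested that were higher. Of 9 further mitochondrial chaperones and assembly factors, 1 was higher and 0 were lower (edgeR's quasi-likelihood test), with a median log2 fold change of 0.11 and 2 at an unadjusted p under 0.05. The 1 was *Grpel1*, the exchange factor that releases ADP from mortalin (log2 fold change 0.54, adjusted p = 0.017, edgeR's quasi-likelihood test). Of 17 further proteases, peptidases and scaffolds, 1 was higher and 0 were lower, with a median of 0.075. This was *Stoml2*, a scaffold of the inner membrane that holds YME1L (0.43). Of 30 genes of protein import, from channel subunits to factors of the intermembrane space, 3 were higher and 0 lower, with a median of 0.17. They were *Romo1* (0.46), a subunit of the inner membrane channel, and *Chchd4* (0.45) and *Gfer* (0.42), the pair that oxidises proteins entering the intermembrane space. *Chchd4* passed again in 11 of 29 other fits and *Gfer* in 19.

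Among 13 regulators linked to the mitochondrial unfolded protein response, 3 were higher and 1 lower, with a median log2 fold change of 0.083. *Atf5* had 117, 151, 178, 166 and 124 CPM in affected mice 1, 3, 4, 5 and 6 and 21.1 to 37.0 CPM in unaffected mice. The increase of 2.31 on the log2 scale had a standard error of 0.14 and adjusted p = 3.52e-06 in edgeR's quasi-likelihood test. *Atf4* rose by 0.84 and *Ddit3*, which encodes CHOP, by 2.61, while *Eif2ak4*, the kinase GCN2, fell by 0.22 on the log2 scale, a call kept in 13 of 29 other fits. *Ddit3* stands in 2 entries of the table, of which 1 was tested. *Hsf1*, the heat shock factor, had a log2 fold change of 0.055 (adjusted p = 0.714, edgeR's quasi-likelihood test). These factors also act in other stress responses.

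Relatives of the 10 genes in other compartments had log2 fold changes from -0.098 to 2.88. Of 18 such genes, 4 were higher and 0 lower, with a median log2 fold change of 0.15. The ER members *Hspa5* (BiP, 2.88) and *Hsp90b1* (GRP94, 2.63) had the largest increases, followed by the cytosolic *Hsp90aa1* (0.57) and *Hspa4* (0.25), which passed again in 12 of 29 other fits. For the 8 subunits of the cytosolic chaperonin, 0 passed edgeR's quasi-likelihood test. *Hspa5* had 1095, 2318, 1744, 2176 and 942 CPM in affected mice 1, 3, 4, 5 and 6, and *Hsp90b1* had 1594, 3278, 3562, 3181 and 1514. Both were lowest of the affected mice in 1 and 6. Within a mouse, the ratio of *Hspa9* to *Hspa5* counts was 0.351, 0.109, 0.152, 0.142 and 0.366 in affected mice 1, 3, 4, 5 and 6 and 0.414 to 1.24 in unaffected mice. The groups did not overlap, and the mean log2 ratio was -2.34 ± 0.80 (SD, n = 5) against -0.34 ± 0.59 (SD, n = 7). The difference of -1.99 had p = 0.00126 in the exact permutation test, which is the smallest value that 5 against 7 mice can give (adjusted p = 0.00253 over 4 ratios). For the HSP90 pair, the log2 ratio of *Trap1* to *Hsp90b1* differed by -2.32 between affected and unaffected mice, without overlap (exact permutation test, p = 0.00126, adjusted p = 0.00253). The ER genes of these pairs rose by 2.88 and 2.63, and *Hspa9* and *Trap1* by 0.87 and 0.25 on the log2 scale. Both ratios were therefore bound to be lower, and their tests say nothing particular about the mitochondrial genes.

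The genes whose log2 CPM followed each of 3 members most closely over the 12 mice were found among 10838 genes, as the smallest root mean square difference after each gene's own mean was subtracted. For *Hspa9* they were *Ghitm* (0.0662), *Msrb3* (0.141) and *Filip1l* (0.148), where the median gene was at 0.510. *Ghitm* encodes a protein of the mitochondrial inner membrane and had a log2 fold change of 0.95. For *Hspd1* they were *Grpel1* (0.0620), *Txn2* (0.0929), the mitochondrial thioredoxin, and *Sh3bp5* (0.0931), with the median gene at 0.397. For *Lonp1* they were *Emc3* (0.0613), *Slc25a46* (0.0640) and *Kdm7a* (0.0668), with the median gene at 0.264. None of these 3 passed edgeR's quasi-likelihood test (adjusted p = 0.0691, 0.147 and 0.114), though *Emc3* did in 4 of 29 other fits. The measure is also small between genes that vary little, so nearness to *Lonp1* need not mean a shared change.

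Promoters of 8 of the 10 genes were searched, taken from a RefSeq table (GRCm38.p6). Those of *Hspa9* and *Afg3l2* were left out of the search, so their sequence was not tested. A promoter covers 250 bases before to 50 after a gene's start. The promoter of *Hspe1* is shown because it overlaps a window of *Hspd1* and both genes rose, and that of *Hspa5* because this ER relative rose the most. Capitals mark matches, on either strand, to the heat shock element cores GAANNTTC and TTCNNGAA, to the ATF/CREB core TGACGT, or to the ER stress response element (CCAAT, 9 bases, CCACG). Also searched was TGATGNAA, a site described for CHOP with ATF factors. The *Hspe1* window at chr1:55087898-55088197 (plus strand) holds an unbroken run of cores in alternating phase, with TTCNNGAA at bases 162 to 169 and 172 to 179 and GAANNTTC overlapping both at 167 to 174. The run lies at 55088059 to 55088076, 56 bases before the annotated start of *Hspe1* and inside an annotated exon of *Hspd1*, and it also lies in a window of *Hspd1* at chr1:55087883-55088182 (minus strand) that shares 285 bases with this one. The other window of *Hspd1*, at its annotated start (chr1:55088194-55088493), holds none of the patterns.
Hspe1: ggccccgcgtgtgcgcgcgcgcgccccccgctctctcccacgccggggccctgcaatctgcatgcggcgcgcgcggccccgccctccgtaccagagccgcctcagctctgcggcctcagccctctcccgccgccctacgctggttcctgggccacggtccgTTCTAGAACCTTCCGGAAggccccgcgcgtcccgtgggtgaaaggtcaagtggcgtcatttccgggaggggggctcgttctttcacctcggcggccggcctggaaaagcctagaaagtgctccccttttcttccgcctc
Hspa5: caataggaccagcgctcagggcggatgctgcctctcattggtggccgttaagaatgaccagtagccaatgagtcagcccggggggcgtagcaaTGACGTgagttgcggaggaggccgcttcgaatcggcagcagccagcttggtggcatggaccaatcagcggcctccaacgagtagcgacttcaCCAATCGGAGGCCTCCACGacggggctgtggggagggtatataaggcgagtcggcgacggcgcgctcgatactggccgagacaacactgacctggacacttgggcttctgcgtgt
The *Hspa5* window at chr2:34771840-34772139 (plus strand) holds the ER stress response element at bases 186 to 204 and TGACGT at 94 to 99. Of 32851 promoters of the same length, 5 (0.0152%) hold the full run found before *Hspe1*, 7.86% hold GAANNTTC, 8.52% TTCNNGAA, 7.51% TGACGT, 3.97% TGATGNAA and 0.119% the ER stress response element. *Clpp* holds 1 TTCNNGAA match, and *Lonp1* and *Trap1* hold TGACGT. The windows of *Dnaja3*, *Clpx* and *Yme1l1* hold none of these letters in this order. A match describes the sequence and does not show binding.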

How the data were processed

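Per the labels, each of 12 mouse thyroids gave 1 library of total RNA. The authors depleted ribosomal RNA, sequenced on an Illumina NextSeq, and aligned and quantified reads in OmicSoft Array Studio against Ensembl gene models of GRCm38. The deposited values are estimated counts without normalization and FPKM, which divide counts by transcript length and by the total of the mouse. Strand use in counting is not stated, and 6 of the 10 genes are marked as confounded with another gene.

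Estimated counts were rounded, filtered with filterByExpr (minimum count 10), scaled by TMM and compared by edgeR's quasi-likelihood test in its robust form (edgeR 4.0.16 under R 4.3.3), without covariates and with a threshold of 0.05. Standard errors are the log2 fold change over the square root of F. CPM values are on the TMM scale. The code was checked on simulated counts. Ratios within a mouse were compared by exact permutation tests.

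Exons come from GENCODE M21, where all 10 genes have the coordinates of the table. The members and gene lists were chosen with earlier results of these data known. Named genes are the members, regulators and relatives, at most 4 called genes of each other list, and the 3 nearest genes of *Hspa9*, *Hspd1* and *Lonp1* with an average log2 CPM of at least 3. The lists are those in the report, and markers of white fat, T cells, B cells, macrophages, parathyroid, C cells, fibroblasts and endothelium. Alternatives were DESeq2 1.42.0, other scalings and filters, limma 3.58.1 on log2(FPKM + 1) or log2(FPKM + 0.1), covariates, and mice left out.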

Additional observations from a re-analysis of the deposited data

Results flagged for a closer look

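Each member, list and ratio and the total count were tested in each group of mice, 68 groups in all. In 6 of them the highest or lowest mouse stood far from the others. Its gap to the nearest mouse took a large share of the group's range. Chance gives about 1 in 20. Among the 20 groups of single members there was 1, *Trap1* in unaffected mouse 22 at 60.9 CPM, with a gap of 0.585 of the range. The same mouse stood apart for the summed brown fat markers at 236 CPM (gap 0.578). Affected mouse 6 stood apart for the summed muscle markers at 106820 CPM (gap 0.958). For B cell markers, affected mouse 1 (273 CPM, gap 0.986) and unaffected mouse 21 (53.9 CPM, gap 0.582) stood apart. Unaffected mouse 14 had the lowest total count, 11434901 (gap 0.608). No cause was tested.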

How the results depend on the processing

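The number of the 10 genes that were higher was 6 of 10 and varied with the processing, while 0 were lower in each fit. It was 6 with DESeq2, with at least 10 counts in every mouse and with the mitochondrial reference mean as a covariate (chosen after seeing the data), 5 with the muscle mean, and 4 with library totals, upper-quartile factors, no filter, limma on either filtered FPKM scale, the *Xist* covariate or the T cell mean. It was 3 with B6NCrl controls alone, which is the fit without mouse 14 and is counted once, and 2 with totals without *Tg*, with limma on unfiltered FPKM (1339 genes called in all) or with the brown fat mean. It was also 2 without affected mice 1 and 6, and 2 without unaffected mice 14 and 21, both chosen after seeing the data. With the summed mitochondrial reference genes as library size it was 0, with 172 genes called in all. With each mouse left out it was 3 to 6, and 3 without affected mouse 1, 5 or 6 or unaffected mouse 14, 21, 24, 25 or 26, while the genes called in all were 1774 to 3390, fewest without affected mouse 5. Totals without *Tg* moved the median of all genes to -0.13 and the share of calls that were higher from 55.6% to 26.2%; that share was 43.2% with upper-quartile factors. *Yme1l1* turned to -0.0022 with library totals, -0.13 without *Tg*, -0.037 with upper-quartile factors, -0.18 with reference scaling, -0.065, -0.067 and -0.065 on the FPKM scales (pseudocounts 1, 0.1 and 1 without the filter), -0.0079 without affected mice 1 and 6, and was -0.0039 to 0.040 with single mice left out. *Afg3l2* turned to -0.11 with reference scaling, -0.051 with the brown fat mean and -0.072 without affected mice 1 and 6, where *Clpx* turned to -0.064. Reference scaling also turned *Slc25a46* (-0.016) and *Kdm7a* (-0.033). With single mice left out, the log2 ratio of *Hspd1* to *Hspe1* differed by 0.13 to 0.18 and that of *Clpp* to *Clpx* by -0.059 to 0.17, or 0.35 without affected mice 1 and 6. The ratios of *Hspa9* to *Hspa5* and *Trap1* to *Hsp90b1* kept direction and threshold in all 14 alternatives. The cause was not tested. No paired analysis was possible because the groups share no mouse numbers. *Clpp* had the lowest counts of the 10 genes.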
